A study of Moricandia arvensis and Moricandia suffruticosa and Moricandia moricandioides with 78 samples.

Results

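Severe drought in leaves of *Moricandia moricandioides* (Mmo) is described here from 5 RNA-seq libraries out of the 78 of the series. They are all the libraries labelled with this species and with sampling point T2, namely 3 of droughted plants (M17s, M19s and M20s) and 2 of well-watered controls (M14c and M16c). Mmo is a wild relative of the cabbages with C3 photosynthesis, and the plants belonged to a single line, Osnabruck:04-0393-10-00. Potted plants of both groups were grown under the same controlled conditions. Watering of the drought group stopped until the stomatal conductance had dropped to 10% of the starting value, whereas each control pot was refilled daily to its starting weight (100%). Mature leaves of T2 were taken at midday. The T2 libraries were also set beside 10 libraries of *M. arvensis* (Mav), a C2 species, at the same stage (5 droughted at 10% and 5 controls), and beside 7 Mmo libraries of T1 (3 droughted at 50% and 4 controls). The paper names a single Mav line, MOR1, so that species and line cannot be told apart. Further controls of Mmo came from T0 (4) and from the sampling after rewatering, RW (4), so that there were 14 Mmo control libraries in all. Leaves of T0 and T1 were likewise taken at midday. Those of RW were taken once soil water was equal in both groups, and no hour is stated for them. Plant age and the severity of drought changed together between T1 and T2, and their effects cannot be told apart.

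When leaves lose water, the hormone abscisic acid (ABA) accumulates and binds soluble receptors of the PYR/PYL family, which then block protein phosphatases of clade A (PP2C). The kinases that these phosphatases held inactive become active and phosphorylate ABF transcription factors, which switch on genes for protective proteins and for compatible solutes such as proline. Severe drought is further known for small heat shock proteins, for leaf senescence, and for a halt of cell expansion, which depends on wall-loosening enzymes. All these roles were established mainly in *Arabidopsis*, whose genes served as the reference here, so a name stands for the *Arabidopsis* gene on which *Moricandia* reads were counted.

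Total counts were between 24399329 and 37102309 per T2 library, over 33602 features. M17s and M19s were nearly identical: their counts differed by a median of 2.04 times the variance that counting noise alone gives, against 50.1 and 53.9 for either of them with M20s and 21.4 between the controls. They were kept as separate replicates, and the results with both summed to a single library are given as well. M20s stood apart, with 4.94% of its counts on chloroplast-encoded features against 0.589 to 1.25% in the other 4 libraries. Light-harvesting genes of mesophyll summed to between 42148 and 93335 counts per 1000000 (CPM, scaled with TMM), as a leaf label requires, and seed storage genes to at most 11.2 CPM. The summed level of 9 guard cell markers was 162 and 175 CPM in the controls and 200.3, 207 and 72.4 CPM in drought. That of 5 xylem markers was 45.3 and 13.1 CPM against 80.7, 79.3 and 16.2 CPM, and no guard cell, xylem or phloem marker was called by edgeR or DESeq2 or had an unadjusted p under 0.05. M20s thus differed from the other drought libraries in its cell type markers too, and their part in the results was not tested. In whole leaves, fewer cells of a type and less RNA per cell cannot be told apart.

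The 5 libraries were compared with edgeR's quasi-likelihood test, and calls needed more than a log2 fold change of 1 in either direction as well as a p under 0.05 after Benjamini-Hochberg adjustment. Of 20497 features tested, 920 (4.49%) were called, 454 (2.21%) higher and 466 (2.27%) lower in drought. In all 920, the drought libraries lay entirely above or below both controls, which was also true of 45.7% of all features tested (22.5% above and 23.3% below). With 3 libraries against 2, an exact permutation test of a single gene cannot give a two-sided p under 0.2, so that the calls rest on the spread shared across features. An unadjusted p under 0.05 was reached by 11.5% of features with higher and 12% with lower values in drought. With M17s and M19s summed, 65 features (0.322%) were still called, 51 (0.253%) higher and 14 (0.0693%) lower, and all were among the 920. Of the lists below, 5 held members among the 65 (LEA proteins, transcription factors, heat shock, senescence and xyloglucan endotransglucosylases), and the others had 0 calls in that fit. No feature was called without M14c (3623 had an unadjusted p under 0.05) or without M16c (3544). There were 32 calls without M17s and 81 without M19s, but 2597 (12.9%) without M20s, 6.23% higher and 6.63% lower. Each list below is therefore described by its counts, its median log2 fold change and the values in every library, beside a median of 0.02 over all features. Set against all 14 Mmo control libraries, every drought library lay above every control for 318 of the 454 higher genes and below every control for 187 of the 466 lower ones. Over all features tested the shares were 6.84% and 4.44% (11.3% in either direction). The calls had a head start here, since all 920 already cleared the 2 T2 controls, which are among the 14. Of all features tested, every drought library was above both T2 controls for 4608 and above all 14 for 1403. For features below, these counts were 4768 and 911. In the edgeR test against these 14 controls 1966 features (9.3%) were called, 5.34% higher and 3.95% lower. That test pooled the sampling points without a term for them and was not run with near-identical libraries summed. Besides M17s and M19s, the control pairs M3s and M4s, M9c and M10c, and M21c and M24c were nearly identical. Its p-values, also those given below for single genes, treat all of these as separate replicates. On the 5 libraries DESeq2 called 2551 (12.4%), 6.49% higher and 5.96% lower. Values set beside other sampling points or beside Mav were scaled over all those libraries together, which changed the T2 values slightly.

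**Figure D1:**
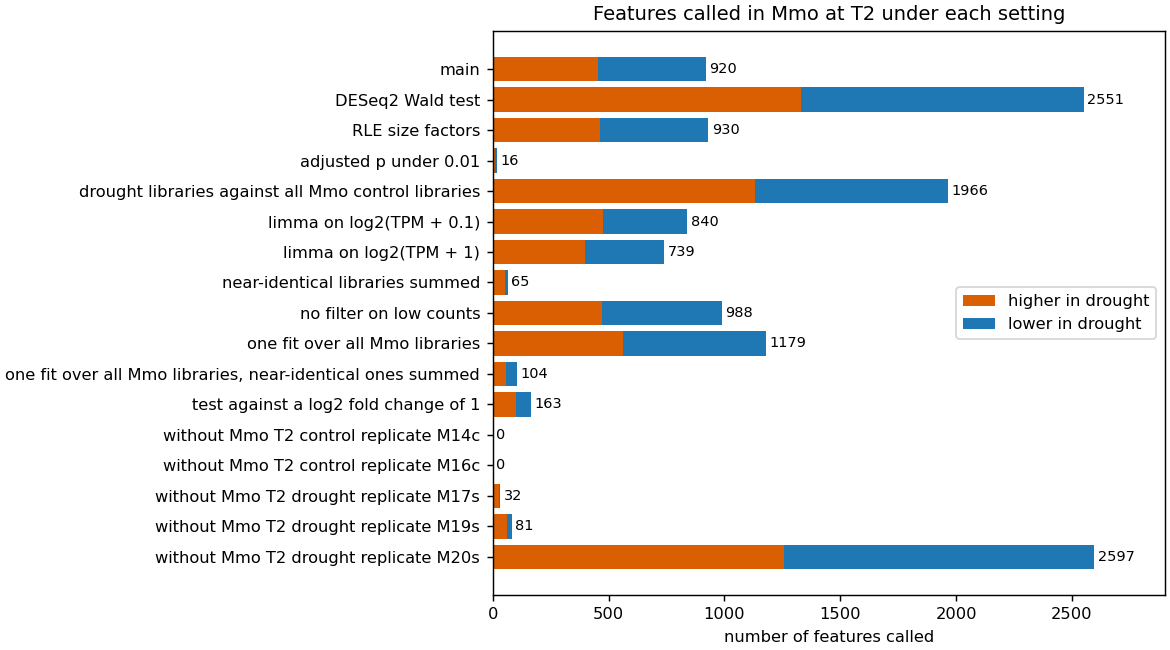
Number of features called higher (orange) and lower (blue) in droughted Mmo at T2 under the main test and each alternative, on a linear axis. The main test gave 920, summing the near-identical libraries 65, leaving out either control 0, and leaving out M20s 2597.

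The list with the highest median held protective proteins of dehydrating cells. Of 13 tested late embryogenesis abundant (LEA) and cold-regulated proteins, hydrophilic proteins that shield membranes and enzymes as water is lost, 6 rose and 0 fell, and all 13 had a positive log2 fold change (median 4.01). With the near-identical libraries summed, 1 of them was still called. In 10 of the 13, every drought library was above both controls, and 10 were called without M20s. LEA4-5 (AT5G06760), a group 4 LEA protein, was at 0.0339 and 0.0988 CPM in the controls and at 78.8, 65.8 and 62.5 CPM in M17s, M19s and M20s, a log2 fold change of 9.93 ± 0.41 (SE, adjusted p = 0.00704, or 0.0282 with the summed pair). The 2 control libraries together held only 4 counts of it, and none of the 14 Mmo controls exceeded 0.421 CPM. LEA14 (AT1G01470), an atypical LEA protein, was at 25.8 and 7.01 CPM in the controls and 362, 317 and 232 CPM in drought (4.21 ± 0.66 on the log2 scale, adjusted p = 0.0334). RD29A (AT5G52310), a classical marker of osmotic and cold stress, was at 5.18 and 2.57 CPM in the controls and 33, 31.3 and 20.0 CPM in drought, an increase of 2.86 ± 0.42 (adjusted p = 0.0282). Controls of T1 and RW reached 20.3 and 21.6 CPM of RD29A, so that M20s lay among them, and the gene was not called against all 14 controls (adjusted p = 0.163). Its neighbour in function RD29B (AT5G52300), which depends more strictly on ABA, was at 49 and 8.07 CPM in the controls and 628, 593 and 355 CPM in drought. With a log2 fold change of 4.2 ± 0.88, RD29B was not called (adjusted p = 0.0584), while all drought libraries were above every Mmo control (at most 57 CPM) and RD29B was called against all 14 (adjusted p = 8.76e-05). LEA18 (AT2G35300) and SAG21 (AT4G02380), a mitochondrial LEA protein linked to oxidative stress, rose by 5.08 and 1.91 on the log2 scale, but controls of T0, T1 and RW overlapped with the droughted plants for SAG21, which was not called against all 14 (adjusted p = 0.269). ECP63 (AT2G36640) was called on 2 counts in the controls and 57 in drought, which makes 17.9 times as many once depths are equalised (exact binomial 95% limits 4.73 and 151, for counting error only).

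Among the dehydrins, a LEA family that is known to bind membranes, 1 of 6 tested genes rose and 0 fell (median 1.93). The gene that rose was RAB18 (AT5G66400), which responds to ABA in *Arabidopsis*. It was at 75.7 and 19.4 CPM in the controls and at 1490.1, 1330.2 and 3083 CPM in drought, a 41.4-fold difference between means (5.37 ± 0.87 on the log2 scale, adjusted p = 0.0349, 0.0805 with the summed pair). No Mmo control exceeded 72.3 CPM, and M20s was the highest of the 5 libraries. COR47 (AT1G20440), an acidic dehydrin of the cold response, was at 106 and 139 CPM in the controls and 629.7, 566 and 226 CPM in drought (adjusted p = 0.09). ERD14 (AT1G76180) was at 198 and 285 CPM against 1037, 954 and 427 CPM (adjusted p = 0.101). In these and in ERD10 and XERO1 the groups did not overlap, but M20s lay well below M17s and M19s in COR47, ERD14 and ERD10, and without M20s 5 of the 6 dehydrins were called higher. HIRD11 (AT1G54410), a histidine-rich dehydrin, overlapped between the groups (284 and 394 CPM against 309.5, 284 and 349.6 CPM).

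**Figure D2:**
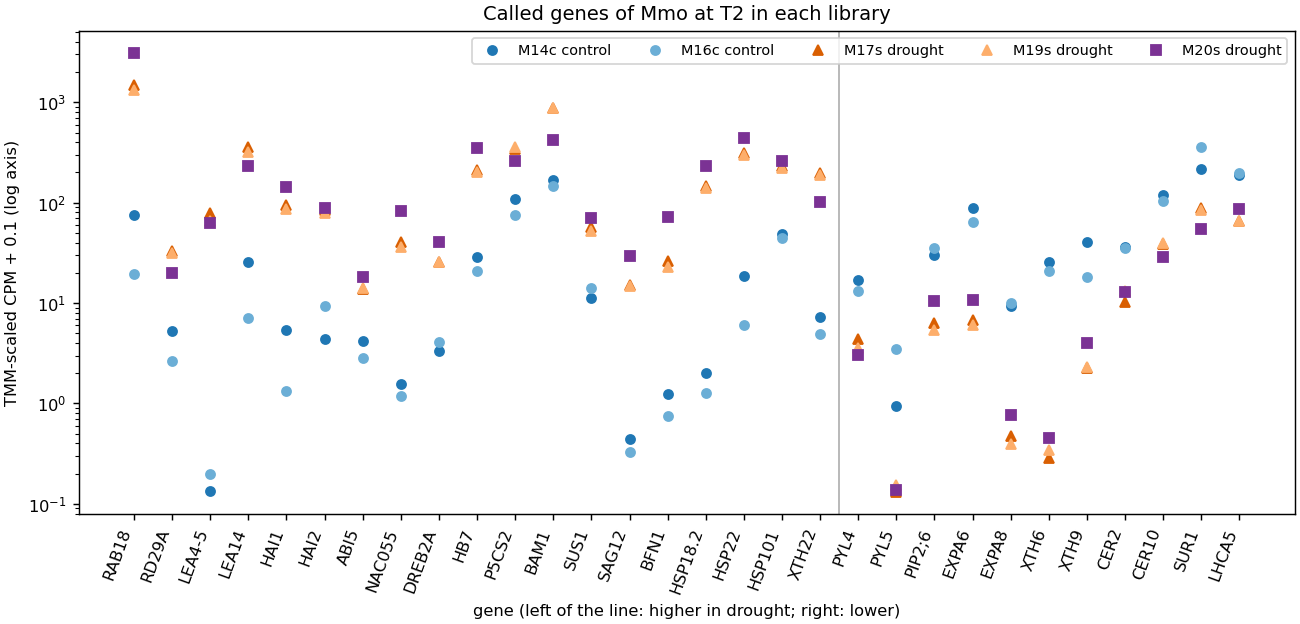
TMM-scaled CPM plus 0.1, on a log axis, of 30 called genes in each of the 5 Mmo libraries of T2, with 1 symbol per library and genes higher in drought left of the line. M17s and M19s nearly coincide for each gene, and RAB18 was at 1490.1, 1330.2 and 3083 CPM in drought against 75.7 and 19.4 CPM in the controls.

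No gene of ABA synthesis or breakdown was called in the main test. Of 8 tested synthesis genes 0 were called by edgeR (median -0.04), 1 by DESeq2 (lower), and 2 had an unadjusted p under 0.05. NCED3 (AT3G14440), the dioxygenase that sets the rate of stress-induced ABA synthesis in *Arabidopsis*, was at 38 and 20.7 CPM in the controls and 138, 134 and 20.3 CPM in drought. M17s and M19s were thus several-fold above the controls, whereas M20s was at the level of the lower control (1.73 ± 0.84 on the log2 scale, adjusted p = 0.282). Without M20s, 3 of the 8 were called higher and 1 lower. Of 6 tested genes for ABA breakdown and conjugates 0 were called by edgeR (median 0.70), 2 by DESeq2, and 3 had an unadjusted p under 0.05. CYP707A1 (AT4G19230), an ABA hydroxylase, was at 2.81 and 1.15 CPM in the controls and 8.57, 7.19 and 16.6 CPM in drought (adjusted p = 0.0773).

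Further along the pathway, some receptor genes fell and several phosphatase genes rose. Of 8 tested ABA receptors, 0 rose and 3 fell (median -1.11), and in 6 every drought library was below both controls. PYL4 (AT2G38310) was at 17 and 13.1 CPM in the controls and 4.27, 3.50 and 2.91 CPM in drought, a log2 fold change of -2.08 ± 0.28 (adjusted p = 0.023). PYL5 (AT5G05440) was at 0.847 and 3.42 CPM against 0.0307, 0.0539 and 0.0388 CPM, or 129 counts in the controls and 4 in drought (-5.55 ± 0.84 on the log2 scale, adjusted p = 0.0301). PYL8 (AT5G53160) had a smaller change (-1.64 ± 0.28 on the log2 scale). The T1 controls were at 4.1 to 5.59 CPM of PYL4, near the droughted plants of T2, and PYL4 was not called against all 14 controls (adjusted p = 0.111), whereas PYL5 and PYL8 lay below all of them in every drought library. None of the receptors was called with the pair summed, and 5 had an unadjusted p under 0.05 in the main test.

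Of 7 tested clade A PP2C genes, 4 rose and 0 fell (median 1.58). HAI1 (AT5G59220), whose *Arabidopsis* product restrains the ABA response under low water potential, was at 5.29 and 1.22 CPM in the controls and at 93.8, 85.5 and 144 CPM in drought (5.05 ± 0.74 on the log2 scale, adjusted p = 0.0274, 0.0667 with the summed pair). HAI2 (AT1G07430) was at 4.3 and 9.35 CPM in the controls and 84.9, 79.6 and 87.4 CPM in drought, a 12.3-fold difference between means. Both lay above every one of the 14 Mmo controls, which reached 12.4 CPM for HAI1 and 14.1 CPM for HAI2. ABI2 (AT5G57050) and PP2CA (AT3G11410), negative regulators of the same step, rose by 1.87 ± 0.18 and 1.58 ± 0.24 on the log2 scale, also above all 14 controls. None of the 4 was called with the pair summed. ABI1 (AT4G26080) was above both controls in every drought library, at 186, 173 and 131 CPM against 75.8 and 86.8 CPM, without a call (adjusted p = 0.0751). HAB2 (AT1G17550), another phosphatase of the clade, was at 64.9 and 77.2 CPM in the controls and 72.1, 74.5 and 54.2 CPM in drought.

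Of 8 tested ABA-activated kinases and ABF factors, 4 rose and 0 fell (median 1.18), and all 4 were transcription factors. ABF3 (AT4G34000) was at 13.4 and 13.5 CPM in the controls and 43.4, 43.4 and 43.4 CPM in drought, with hardly any spread within the groups (1.69 ± 0.17 on the log2 scale, adjusted p = 0.0131). ABI5 (AT2G36270), an ABF relative best known from seeds, was at 4.1 and 2.77 CPM against 13.6, 14.1 and 18 CPM, an increase of 2.15 ± 0.30. ABF2 (AT1G45249) and ABF4 (AT3G19290) rose by 1.15 ± 0.17 and 1.21 ± 0.22. In all 4, the drought libraries were above every one of the 14 Mmo controls, and 0 of the 4 were called with the pair summed. The kinase gene OST1 (AT4G33950), central to stomatal closure, was at 25 and 23.1 CPM in the controls and 17.2, 18.7 and 13.7 CPM in drought (adjusted p = 0.191).

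Transcription factors of the drought response rose as well. Of 18 tested, 8 rose and 0 fell (median 1.93), and 2 were still called with the pair summed, against 12 without M20s. NAC055 (AT3G15500), a NAC factor that acts in ABA and jasmonate responses and in senescence, was at 1.46 and 1.09 CPM in the controls and 40.5, 36.1 and 82.1 CPM in drought, a log2 fold change of 5.37 ± 0.53 (adjusted p = 0.0131, 0.0358 with the summed pair). DREB2A (AT5G05410), which activates dehydration and heat shock genes without ABA, was at 3.22 and 3.95 CPM in the controls and 25.8, 25.4 and 40.6 CPM in drought (3.09 ± 0.32, adjusted p = 0.0147, 0.0497 with the summed pair). HB7 (AT2G46680), an ABA-induced homeodomain factor that restrains growth, was at 28.5 and 20.9 CPM in the controls and 214, 199.9 and 351 CPM in drought, above all 14 Mmo controls. ZAT6 (AT5G04340) and ZAT10 (AT1G27730), zinc finger repressors, rose by 4.07 ± 0.53 and 2.98 ± 0.30, and MYB2 (AT2G47190) by 3.95 ± 0.56. A single RW control, M23c, was at 120.0 CPM of ZAT10, above every drought library (58.5 to 65.6 CPM), and ZAT10 was not called against all 14 controls (adjusted p = 0.102). The same control was at 30.7 CPM of DREB2A, above M17s and M19s, and DREB2A was still called against all 14 (adjusted p = 0.0444). For MYB2 1 control of T0, M12c, reached 39.9 CPM, above the highest drought library (31.2 CPM), and the gene was not called against all controls (adjusted p = 0.222). The NAC genes RD26 (AT4G27410) and NAC019 (AT1G52890) rose too, by 1.97 and 1.90. Of the cold-response CBF factors, CBF4 (AT5G51990), which answers to drought in *Arabidopsis*, was at 0.0339 and 0.132 CPM in the controls and 9.68, 8.35 and 1.09 CPM in drought, without a call (adjusted p = 0.0592). CBF1 and CBF2 stayed at or below 2.75 CPM in every library and overlapped between the groups. The homeodomain gene HB6 and the factors MYB44 and MYB96 had log2 fold changes between -0.22 and -0.11.

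Genes for compatible solutes rose in part. Of 9 tested genes of proline metabolism, 2 rose and 0 fell (median 1.37), and in 7 every drought library was above both controls. P5CS1 (AT2G39800), the stress-induced enzyme of the first step of proline synthesis, was at 935 and 328 CPM in the controls and 2743, 2772 and 1959 CPM in drought. Its log2 fold change was 1.98 ± 0.54 without a call (adjusted p = 0.101), but every drought library was above every one of the 14 Mmo controls, which reached 893 CPM, and against all of them P5CS1 was called (2.96 on the log2 scale, adjusted p = 0.0012). The second synthesis gene P5CS2 (AT3G55610) rose from 109 and 74.4 CPM to 344, 355 and 260.3 CPM (1.80 ± 0.29, adjusted p = 0.0351). PRODH2 (AT5G38710), a proline dehydrogenase of the opposite direction, rose at low levels, from 0.542 and 0.263 CPM to 3.10, 2.80 and 2.21 CPM, but T0 controls were at 2.89 to 4.87 CPM and it was not called against all 14 controls (adjusted p = 0.516). The main dehydrogenase gene PRODH1 (AT3G30775) separated the drought libraries, at 5.13, 5.36 and 75.8 CPM in M17s, M19s and M20s against 3.22 and 3.92 CPM in the controls.

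For galactinol and raffinose, soluble sugars of the raffinose family, 0 of 8 tested genes were called by edgeR (median 1.08, with 4 by DESeq2, 4 without M20s and 4 at an unadjusted p under 0.05). GOLS2 (AT1G56600), the drought-induced galactinol synthase, was at 18.6 and 6.75 CPM in the controls and 118, 114 and 26.2 CPM in drought (adjusted p = 0.118), with M20s far below M17s and M19s. Of 26 tested genes of sucrose, starch and trehalose metabolism, 2 rose and 2 fell (median -0.03). BAM1 (AT3G23920), a chloroplast beta-amylase that degrades starch under osmotic stress, was at 169 and 148 CPM in the controls and 881, 869 and 425 CPM in drought (2.19 ± 0.41 on the log2 scale, adjusted p = 0.0472), above all 14 Mmo controls. SEX4 (AT3G52180), a phosphatase of the night-time route of starch breakdown, was at 61.4 and 53.9 CPM against 19.5, 20.4 and 30.3 CPM (-1.30 ± 0.25, adjusted p = 0.0486). SUS1 (AT5G20830), a sucrose synthase, was at 11.2 and 14.1 CPM in the controls and 56.9, 52.7 and 70 CPM in drought (2.24 ± 0.23, adjusted p = 0.0147). The T2 controls were the lowest of all Mmo controls for SUS1, those of RW being at 22.8 to 179 CPM, and against all 14 controls its sign turned (-0.26, adjusted p = 0.857). TPS5 (AT4G17770), of the class II trehalose-phosphate synthases, was at 22.7 and 35.3 CPM against 9.61, 10.1 and 12.8 CPM (-1.42 ± 0.26), with T0 controls as low as 8.14 CPM. The sugar efflux carrier SWEET15 (AT5G13170), also known as the senescence gene SAG29, was the single one called of 4 tested transporters (median 0.23), at 10.1 and 3.36 CPM in the controls and 70.2, 65.6 and 145 CPM in drought. The T1 control M6c and the near-identical RW controls M21c and M24c were as high (101, 83.8 and 85.7 CPM). All other Mmo controls were at or below 9.64 CPM, and SWEET15 was not called against all 14 (adjusted p = 0.343).

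The list with the largest share of calls was that of heat shock proteins and factors. Of 16 tested genes, 12 rose and 0 fell, all 16 had a positive log2 fold change (median 3.18), and in 15 the drought libraries were above both controls. With the pair summed, 2 were still called, against all 14 Mmo controls 7, and without M20s 13. Small heat shock proteins are chaperones that hold unfolding proteins in solution. HSP18.2 (AT5G59720) was at 1.90 and 1.19 CPM in the controls and 148, 139 and 229.6 CPM in drought, a 112-fold difference (6.80 ± 0.45 on the log2 scale, adjusted p = 0.00936, 0.0358 with the summed pair). Other Mmo controls reached 20.6 CPM, still well under the lowest drought library. HSP22 (AT4G10250), of the endoplasmic reticulum, was at 18.3 and 5.96 CPM in the controls and 316, 299.9 and 439 CPM in drought. T1 controls reached 162 CPM of HSP22. HSP17.6C (AT1G53540) was at 15.3 and 1.61 CPM against 445, 419 and 315 CPM (5.54 ± 1.06, adjusted p = 0.0485), with a wide difference between the controls. HSP17.8 (AT1G07400) rose by 2.76 and was the other gene still called with the pair summed (adjusted p = 0.0497). T1 controls reached 68.7 CPM of HSP17.8 and overlapped with the droughted plants of T2 (61.1 to 73.4 CPM), and it was not called against all 14 controls (adjusted p = 0.151). Cytosolic small heat shock genes resemble each other closely, and reads shared among them make single levels uncertain. HSP101 (AT1G74310), a disaggregase, was at 48.8 and 44.4 CPM against 232, 224 and 259 CPM. Among the heat shock factors, HSFA2 (AT2G26150) rose from 5.45 and 5.00 CPM to 31.6, 25.7 and 22.9 CPM, and HSFA6A (AT5G43840), which responds to ABA and drought in *Arabidopsis*, from 0.169 and 0.0658 CPM to 7.28, 5.25 and 14.5 CPM (6.22 ± 0.77, on 7 counts in the controls). HSFA3 and HSFA6B were not called (log2 fold changes of 0.82 and 0.80).

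**Figure D3:**
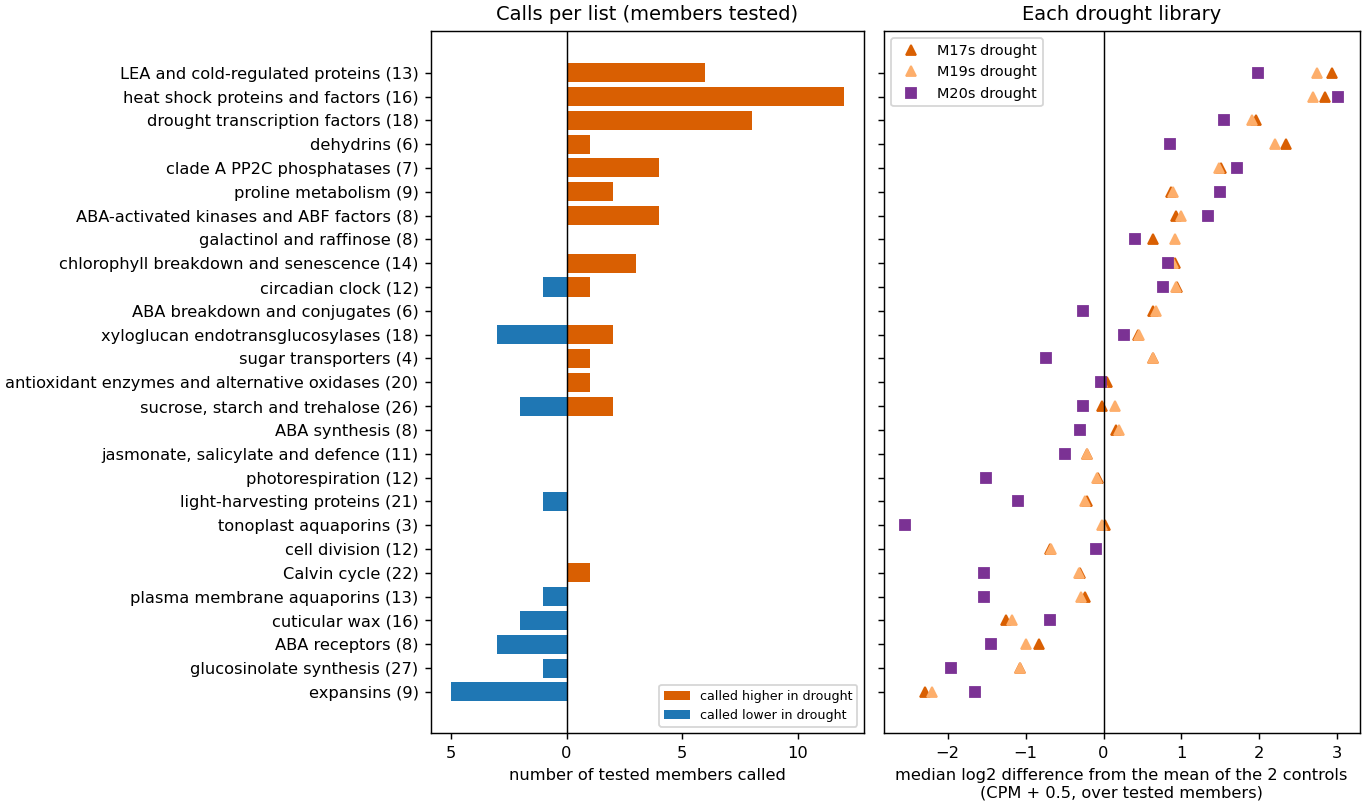
Left, number of tested members called higher (orange) or lower (blue) in droughted Mmo at T2 for each of 27 gene lists, with the number tested in parentheses. Right, median log2 difference of each drought library from the mean of the 2 controls over the tested members (CPM plus 0.5). M17s and M19s lie close together, and M20s lay lower for photosynthesis and aquaporins (light-harvesting -1.10 against -0.21 and -0.24).

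Senescence genes rose in part. Of 14 tested genes of chlorophyll breakdown and senescence, 3 rose and 0 fell (median 1.02), and 1 was still called with the pair summed, against 5 without M20s. SAG12 (AT5G45890), a cysteine protease and the usual marker of developmental senescence, was at 0.339 and 0.230 CPM in the controls and 14.9, 14.5 and 29.2 CPM in drought (6.08 ± 0.54 on the log2 scale, adjusted p = 0.0126, 0.0358 with the summed pair). T0 controls were at 13.1 to 4086 CPM, however, so that against all 14 Mmo controls the sign turned (-4.01, adjusted p = 0.446). BFN1 (AT1G11190), a nuclease of senescence and cell death, was at 1.15 and 0.658 CPM against 26.4, 22.7 and 72.6 CPM, and M12c was high for it too (82.9 CPM). NYE2 (AT4G11910), the STAY-GREEN homologue that starts chlorophyll breakdown, was at 8.54 and 3.79 CPM in the controls and 49.9, 51.7 and 46.6 CPM in drought (3.00 ± 0.39, adjusted p = 0.0224). None of the 14 Mmo controls exceeded 11.7 CPM of NYE2. Its relative NYE1 (AT4G22920) was at 18.3 and 30.7 CPM against 51.8, 50.7 and 36.8 CPM, without a call (adjusted p = 0.143). The NAC regulators ORE1 and NAP had log2 fold changes of 1.55 and 0.93 (adjusted p = 0.107 and 0.0592).

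In the lists of photosynthesis the share of calls was near that of all features (4.49%) or 0. Of 21 tested light-harvesting genes, 0 rose and 1 fell (median -0.42), of 22 Calvin cycle genes 1 rose and 0 fell (median -0.66), and of 12 photorespiration genes 0 were called by edgeR, 2 by DESeq2, 2 without M20s, and 2 had an unadjusted p under 0.05 (median -0.38). LHCA5 (AT1G45474), a minor antenna protein of photosystem I that joins it to the NADH dehydrogenase-like complex, was at 190.3 and 197 CPM in the controls and 66, 65 and 86.1 CPM in drought (-1.42 ± 0.21, adjusted p = 0.0286). RW controls were as low as 75.7 CPM. CP12-3 (AT1G76560), of the small regulators of the Calvin cycle, was at 6.84 and 8.56 CPM against 17.42, 16.4 and 21.3 CPM (1.25 ± 0.23, adjusted p = 0.0462). For the abundant members named next, M20s was the lowest library. Rubisco activase, RCA (AT2G39730), was at 20107 and 18655 CPM in the controls and 15944, 15949 and 5161 CPM in drought. The major antenna gene LHCB2.3 (AT3G27690) was at 7368 and 6598 CPM against 4546, 4459 and 1017 CPM. Against the mean of the controls, the median of the Calvin cycle genes was -1.54 in M20s but -0.30 and -0.31 in M17s and M19s, and that of photorespiration was -1.51 against -0.08 and -0.08. M20s was also the library with the most chloroplast-encoded counts, and the part of this in the lower nuclear-encoded levels was not tested.

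For water channels, too, M20s was apart from the other drought libraries. Of 13 tested plasma membrane aquaporins (PIPs), 0 rose and 1 fell (median -0.67), and of 3 tested tonoplast aquaporins (median -0.46) 0 were called by edgeR, 1 by DESeq2 (lower), and 1 had an unadjusted p under 0.05. PIP2;6 (AT2G39010) was at 30.4 and 35.1 CPM in the controls and 6.17, 5.33 and 10.3 CPM in drought (-2.17 ± 0.32 on the log2 scale, adjusted p = 0.0286), below all 14 Mmo controls in every drought library. PIP2;1 (AT3G53420), a main water channel of leaves, was at 685 and 517 CPM in the controls and 534, 522 and 78.6 CPM in drought. PIP1;2 (AT2G45960) was at 1652 and 2315 CPM against 2521, 2456 and 883 CPM. In both, M17s and M19s lay within or above the controls and M20s below them.

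The list with the lowest median held genes of wall loosening. Of 9 tested expansins, which let cell walls extend, 0 rose and 5 fell (median -2.04), and in 8 every drought library was below both controls. EXPA8 (AT2G40610) was at 9.32 and 9.94 CPM in the controls and 0.369, 0.296 and 0.659 CPM in drought (-4.46 ± 0.43, adjusted p = 0.0131). EXPA6 (AT2G28950) was at 89.3 and 63.5 CPM against 6.73, 5.98 and 10.54 CPM (-3.30 ± 0.32, adjusted p = 0.0131). EXPA5 (AT3G29030) and EXPA1 (AT1G69530) had log2 fold changes of -3.05 ± 0.46 and -2.04 ± 0.32. Other Mmo controls were often at the level of the droughted plants, such as the T1 controls at 0.0363 to 5.41 CPM of EXPA8, and against all 14 controls 1 of the 9 expansins was called, EXPA6 (adjusted p = 0.0281). Without M20s, 8 of the 9 were called, whereas with the pair summed none was (7 had an unadjusted p under 0.05 in the main test).

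Xyloglucan endotransglucosylases (XTHs), which cut and rejoin wall polymers, moved in both directions, with 2 of 18 tested members higher and 3 lower (median 0.33), and 1 in each direction with the pair summed. XTH6 (AT5G65730) was at 25.7 and 20.9 CPM in the controls and 0.184, 0.242 and 0.349 CPM in drought, a log2 fold change of -6.49 ± 0.34 (adjusted p = 0.00775, 0.0358 with the summed pair). XTH7 (AT4G37800) had 365 counts in the controls and 3 in drought, which makes a ratio of drought to control of 0.00516 once depths are equalised (exact binomial 95% limits 0.00106 and 0.0152). XTH9 (AT4G03210) was at 40.1 and 18.3 CPM against 2.15, 2.21 and 3.88 CPM, with an RW control as low as 1.96 CPM. The T2 controls held the highest XTH6 levels of all Mmo controls, the others ranging up to 5.97 CPM at T1, and neither XTH6 nor XTH7 was called against all 14 (adjusted p = 0.154 and 0.121). In the opposite direction, XTH22 (AT5G57560), the touch-induced gene TCH4, was at 7.08 and 4.87 CPM in the controls and 198, 188 and 102 CPM in drought (4.77 ± 0.44, adjusted p = 0.0126, 0.0454 with the summed pair). It exceeded all 14 Mmo controls, the highest of which was at 27.9 CPM. XTH23 (AT4G25810), of the same family, rose from 0.102 and 0.198 CPM to 5.10, 5.66 and 2.52 CPM.

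Of 16 tested genes of cuticular wax, 0 rose and 2 fell, none had a log2 fold change above 0 (median -0.93), and 13 were below both controls in every drought library. CER2 (AT4G24510), needed for very long wax chains, was at 35.8 and 35.3 CPM in the controls and 10.3, 13 and 12.8 CPM in drought (-1.57 ± 0.19, adjusted p = 0.0202). CER10 (AT3G55360), an enoyl-CoA reductase of chain elongation, was at 118 and 103 CPM against 38.5, 39.97 and 29 CPM. Without M20s, 9 were called lower. T0 controls of CER2 were at 3.89 to 10.4 CPM and overlapped with the droughted plants (9.83 to 12.3 CPM on the same scale), while CER10 lay below all 14 Mmo controls. Epidermis markers were at a summed level of 155 and 103 CPM in the controls and 96.9, 94.3 and 102 CPM in drought, with ATML1 (AT4G21750), an epidermal identity factor, at 36.8 and 25.2 CPM against 16.1, 14.6 and 7.44 CPM. Of these 3 markers 0 were called by edgeR, 1 by DESeq2 (lower), and 1 had an unadjusted p under 0.05, and their part in the wax result was not tested.

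Glucosinolates are the sulphur-rich defence compounds of the Brassicaceae. Of 27 tested genes of their synthesis and transport, 0 rose and 1 fell, but 25 had a negative log2 fold change (median -1.37) and 22 were below both controls in every drought library. SUR1 (AT2G20610), the C-S lyase shared by all glucosinolates, was at 214 and 361 CPM in the controls and 87.6, 83.5 and 54.3 CPM in drought (-1.93 ± 0.33, adjusted p = 0.0393), below all 14 Mmo controls. MYB28 (AT5G61420), the main regulator of the aliphatic branch, was at 81.8 and 139.8 CPM in the controls and 43.7, 46.4 and 32.8 CPM in drought, without a call (adjusted p = 0.0559). MAM1 (AT5G23010), which lengthens the methionine side chain, was at 659.6 and 912 CPM against 317, 315 and 94.1 CPM (adjusted p = 0.141). An unadjusted p under 0.05 was reached by 15 of the 27, all lower. The count of calls was 12 without M20s, 12 by DESeq2 and 7 against all 14 controls, each time lower in drought.

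Among 20 antioxidant enzymes and alternative oxidases, 1 rose and 0 fell (median 0.02). It was CAT1 (AT1G20630), a catalase induced by ABA and hydrogen peroxide, at 44.2 and 32.2 CPM in the controls and 177, 162 and 277 CPM in drought (2.43 ± 0.34, adjusted p = 0.0259), above all 14 Mmo controls. The leaf catalase CAT2 (AT4G35090) was at 2660 and 2677 CPM against 3237, 3229 and 1707 CPM. Of 12 tested clock genes, 1 rose and 1 fell (median 0.96), while 3 and 1 were called without M20s. LUX (AT3G46640), an evening complex member, was at 0.237 and 0.165 CPM in the controls and 3.69, 2.07 and 8.84 CPM in drought, while RW controls reached 19.6 CPM and LUX was not called against all 14 (adjusted p = 0.866). PRR3 (AT5G60100), an evening-phased pseudo-response regulator, was at 57.9 and 65.3 CPM against 26.7, 25.8 and 31.9 CPM, below all 14 controls. TOC1 (AT5G61380) and PRR5 (AT5G24470), of the same family, were at 5.93, 5.66 and 29.96 CPM and 32.5, 32.5 and 106 CPM in drought, highest in M20s each time, with controls at 1.15 and 2.37 CPM and 12.5 and 12.1 CPM. Of 11 jasmonate, salicylate and defence genes 0 were called by edgeR (median -0.10), 3 by DESeq2 (lower), and 3 had an unadjusted p under 0.05. LOX2 (AT3G45140), of jasmonate synthesis, differed between the controls themselves, at 627 and 5317 CPM, against 387, 392 and 545 CPM in drought. Of 12 cell division genes 0 were called by edgeR (median -0.47), 1 by DESeq2, and 3 had an unadjusted p under 0.05, and the mean level of each was under 20 CPM in both groups.

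The lists were drawn from general knowledge and need not hold every member of a family. Apart from them, the rule for genes called in both fits named identifiers to which no symbol was given here. AT3G15670 had 2 counts in the controls and 6037 in drought, or 1893 times as many with depths equalised (exact binomial 95% limits 524 and 15637). AT5G15250 had 1 count in the controls and 2235 in drought, or 1402 times as many (251 and 55394). Among the lower genes, AT5G63180 was at 18.8 and 41 CPM in the controls and 0.338, 0.269 and 0.504 CPM in drought (-6.35 ± 0.48, adjusted p = 0.0126). AT4G28780 was at 13.4 and 11.7 CPM against 0.246, 0.215 and 0.543 CPM (-5.24 ± 0.47, adjusted p = 0.0126). The higher pair exceeded every one of the 14 Mmo controls, whereas the lower pair overlapped with controls of other sampling points.

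To set these responses beside those of moderate drought, the response at T2 was compared with that at T1, at 50% of the starting conductance. Plant age differed between these stages too. The comparison used an interaction term in 1 fit over 12 libraries, 5 of which are those of the comparison above. Of 21379 features tested, 1279 (5.98%) were called, 794 (3.71%) with a response shifted upward at T2 and 485 (2.27%) downward. With near-identical libraries summed (2 further pairs at T1, M9c with M10c and M7s with M12s), 107 (0.508%) were called, 81 and 26, while DESeq2 called 11% of features. M5c differed from M9c and M10c by only 6.96 and 7.95 times the counting variance, and M8s from M7s and M12s by 8.64 and 7.12. M6c differed from the other T1 controls by 39.2 to 52.9. M5c and M8s were kept as separate replicates in the summed fit, so that T1 may hold fewer independent samples than libraries. An unadjusted p under 0.05 was reached by 13% upward and 9.92% downward. The count was 513 without M16c, 601 without M7s, 620 without M12s, 737 without M8s, 823 to 843 without M10c, M5c or M9c, and 2613 without M6c, a T1 control in which the most abundant feature held 2.86% of counts against 10.14 to 10.98% in the other T1 controls. Of the LEA and heat shock genes, 7 of 13 (median 3.27) and 5 of 17 (median 2.60) tested members were shifted upward and 0 downward, beside a median of 0.06 over all features. With near-identical libraries summed, 1 of each list was still called. In some heat shock genes the stages differed in their controls as well. HSP17.6B (AT2G29500) was at 285 to 367 CPM in the T1 controls (M6c at 20.6 CPM) and 324 to 391 CPM in T1 drought. At T2 it was at 53.2 to 64.3 CPM and 349 to 532 CPM, so that the drought levels overlapped. HSP22 was at 18.7 to 162 CPM and 75.5 to 83.8 CPM at T1, and at 5.71 to 17.5 CPM and 284 to 418 CPM at T2. LEA4-5 was at 0 to 0.249 CPM in the T1 controls and 0.0761 to 0.266 CPM in the T1 drought libraries, far from its level at T2 (difference between responses 9.82 ± 0.94 on the log2 scale, adjusted p = 3.06e-04, 0.0144 with near-identical libraries summed). RAB18 was at 21 to 52.1 CPM in the T1 controls and 61.5 to 112 CPM in T1 drought. At T2 the same scaling gave 18.6 to 72.3 CPM and 1261 to 2937 CPM (4.13 ± 0.80, adjusted p = 0.0139, 0.116 summed).

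HSP18.2 was at 9.29 to 20.6 CPM in the T1 controls and 7.32 to 8.08 CPM in T1 drought, all below the controls of that stage (7.61 ± 0.54, adjusted p = 7.84e-05, 0.00841 summed). HSP101 was at 173 to 189 CPM in T1 drought and 212 to 247 CPM in T2 drought, while 3 of its 4 controls at T1 were at 183 to 208 CPM (M6c at 12.1 CPM) and those of T2 at 42.6 to 46.6 CPM, and the difference between responses was not called (2.07 ± 0.99, adjusted p = 0.242). DREB2A was at 11.3 to 15.3 CPM in the controls and 15.8 to 19.5 CPM in drought at T1, and at 3.07 to 3.79 CPM and 24.1 to 38.7 CPM at T2, where the controls were the lower ones and the droughted plants the higher (2.71 ± 0.32, adjusted p = 0.00108, 0.0316 summed). A shift in the opposite direction was measured for ABF3. It was at 8.07 to 13.6 CPM in the T1 controls and 79.8 to 113 CPM in T1 drought, above its drought level at T2 of 41.1 to 41.5 CPM (-1.63 ± 0.30, adjusted p = 0.0106, 0.152 summed). The senescence regulator NAP (AT1G69490) was at 0.0466 to 2.24 CPM and 30.6 to 40.4 CPM at T1, and at 10.8 to 11.6 CPM and 19.5 to 23.7 CPM at T2 (-3.73 ± 0.80, adjusted p = 0.0207, 0.195 summed). For PYL4 the drought levels overlapped between the stages, at 2.71 to 5.71 and 2.77 to 4.09 CPM, while the controls were at 4.1 to 5.59 CPM at T1 and 12.6 to 16.2 CPM at T2 (-1.85 ± 0.40, adjusted p = 0.0211, 0.122 summed). XTH7 was at 0.186 to 0.472 CPM in the T1 controls, below 4.69 to 6.94 CPM in those of T2, so that here the stages differed in their controls. Of 5 xylem markers 3 were also shifted upward at T2, and their part in the comparison was not tested. For the light-harvesting, Calvin cycle and photorespiration lists 0 of 21, 0 of 22 and 0 of 12 tested members were called by edgeR, while DESeq2 called 1, 0 and 0, and 2, 1 and 1 had an unadjusted p under 0.05.

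**Figure D4:**
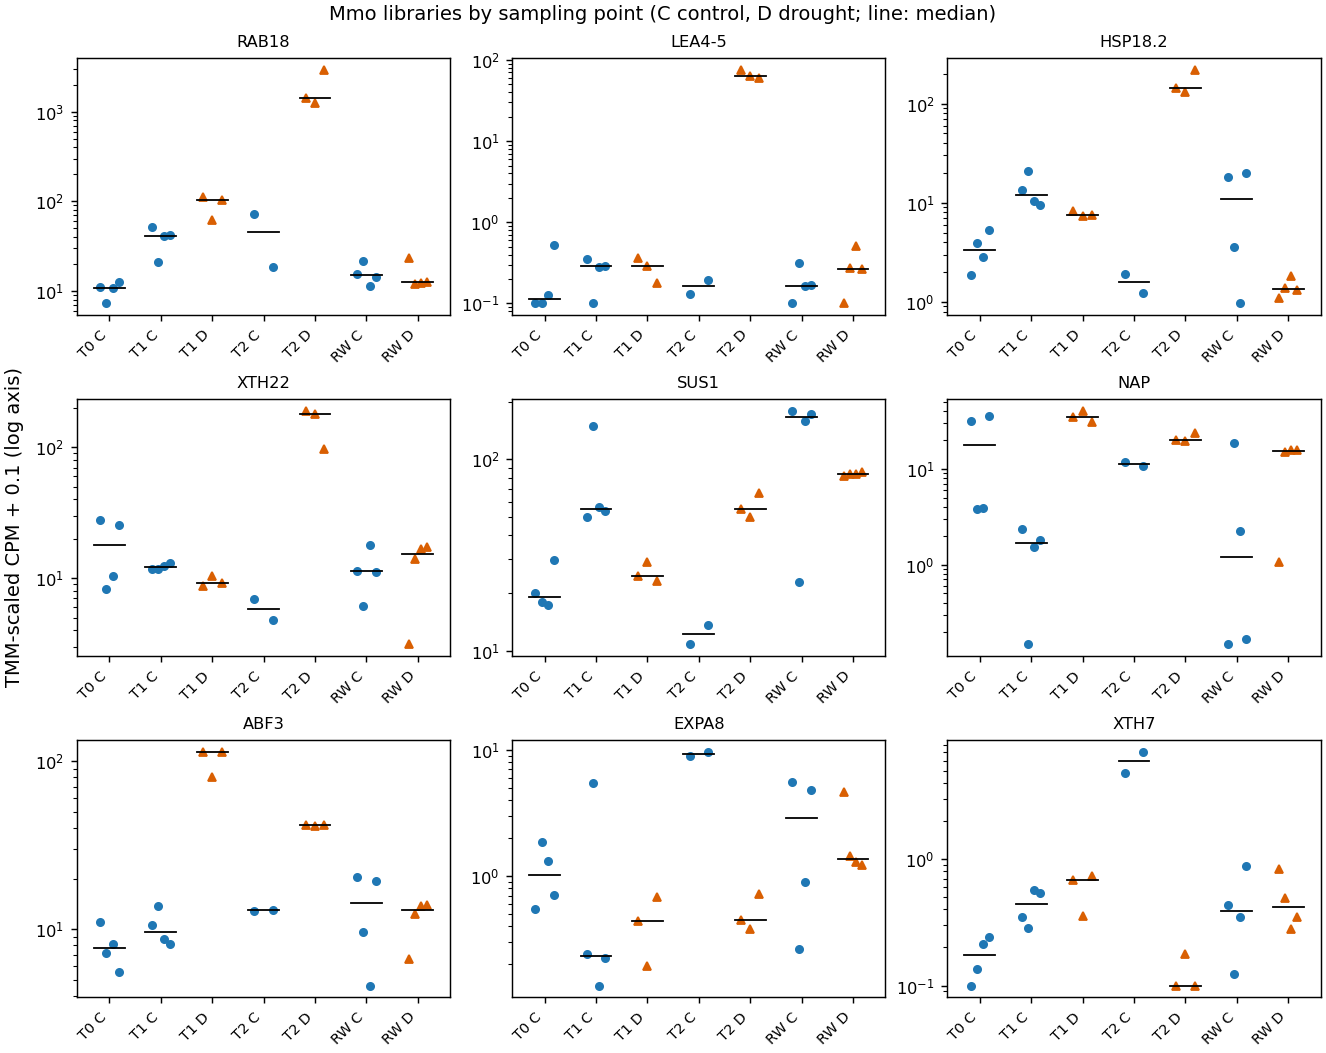
TMM-scaled CPM plus 0.1 of 9 genes, on log axes, in control (C, blue circles) and drought or rewatered (D, orange triangles) Mmo libraries at T0, T1, T2 and RW, with a line at the median. RAB18 was at 1261 to 2937 CPM in T2 drought and 61.5 to 112 CPM in T1 drought, whereas ABF3 was at 41.1 to 41.5 CPM in T2 drought and 79.8 to 113 CPM in T1 drought.

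The response was then compared with that of Mav at the same 10% of stomatal conductance, with an interaction term in 1 fit over 15 libraries, which again include the 5 of Mmo. Of 22323 features tested, 1158 (5.19%) were called, 616 (2.76%) with a response shifted upward in Mmo relative to Mav and 542 (2.43%) downward. With near-identical libraries summed, 349 (1.58%) were called, 178 and 171, while DESeq2 called 10.4% of features. The pairs summed were M17s with M19s and, of droughted Mav, A28s with A44s (2.60 times the counting variance). An unadjusted p under 0.05 was reached by 11.5% upward and 10.1% downward. The count was 143 without M16c, 562 without M14c, 614 without M19s, 648 without M17s and up to 1439 otherwise (without A35s). A35s, of droughted Mav, had 21375 detected features and 4.61% of counts on chloroplast-encoded features. The other droughted Mav libraries had 24347 to 24981 features and 0.365 to 2.68%. In photosynthesis 4 of 21 light-harvesting (median 1.06) and 5 of 22 Calvin cycle genes (median 0.84) were shifted upward and 0 downward, beside a median of 0.06 over all features, and 1 of each list was still called with near-identical libraries summed. LHCB1.3 (AT1G29930), a major antenna protein, was at 4813 to 6365 CPM in Mmo controls and 5197 to 6105 CPM in Mmo drought, against 2517 to 7375 CPM and 590.0 to 1107 CPM in Mav (2.7 ± 0.53, adjusted p = 0.0111, 0.0451 summed). The groups thus overlapped in Mmo and were apart in Mav for this gene. In the main comparison, 20 of the 21 light-harvesting genes had a negative log2 fold change in Mmo. In 11 of them every drought library was below both controls. RBCS1B (AT5G38430), a Rubisco small subunit, was at 2281 to 2797 CPM and 891 to 1677 CPM in Mmo and at 4097 to 8467 CPM and 574 to 812 CPM in Mav (2.40 ± 0.45, adjusted p = 0.00904). Levels of single members of these families are uncertain, since reads can fit several of them equally well. TIP2;1 (AT3G16240), a tonoplast aquaporin, was at 43.2 to 67.3 CPM and 45.1 to 91.9 CPM in Mmo and at 30.6 to 658 CPM and 2.92 to 13.6 CPM in Mav, where 1 control lay far below the other 4 (6.25 ± 1.2, adjusted p = 0.0101).

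A more negative response in Mmo was called for 5 of 14 tested genes of chlorophyll breakdown and senescence (median -1.87), 6 of 20 antioxidant genes (median -0.48) and 3 of 8 PP2C phosphatases (median -1.74), with 0 upward in each list. With near-identical libraries summed, 2, 2 and 0 of them were still called. NYE2 (AT4G11910) was at 3.63 to 8.16 CPM in controls and 44.4 to 49 CPM in drought of Mmo, and at 0.353 to 1.48 CPM and 114 to 162 CPM in Mav (-4.25 ± 0.57, adjusted p = 0.00149, 0.0176 summed). FER1 (AT5G01600), an iron-storing ferritin, was at 64.5 to 73.7 CPM and 174 to 659.7 CPM in Mmo, with M20s highest, and at 5.76 to 24.2 CPM and 881 to 1802 CPM in Mav (-4.08 ± 0.74, adjusted p = 0.00747, 0.0387 summed). HAI2 was at 75.4 to 83.3 CPM in droughted Mmo and 92.9 to 133 CPM in droughted Mav, with controls at 4.11 to 8.96 CPM and 0.501 to 2.65 CPM (-2.64 ± 0.57, adjusted p = 0.0167, 0.0689 summed). ABF2 was at 34.1 to 35.9 CPM in droughted Mmo and 67.9 to 136 CPM in droughted Mav, with controls at 15.0 to 16.9 CPM and 6.76 to 13 CPM (-2.2 ± 0.34, adjusted p = 0.00358, 0.0267 summed). In both genes the Mmo controls were above those of Mav and the droughted Mmo plants below those of Mav. For the dehydrins 0 of 7 and for the heat shock list 0 of 17 tested members were called by edgeR, while DESeq2 called 0 and 2, and 0 and 4 had an unadjusted p under 0.05. RAB18 was at 68.9 to 315 CPM in Mav controls and 3352 to 8624 CPM in Mav drought, a difference between responses of -0.01 ± 0.86 (adjusted p = 1).

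**Figure D5:**
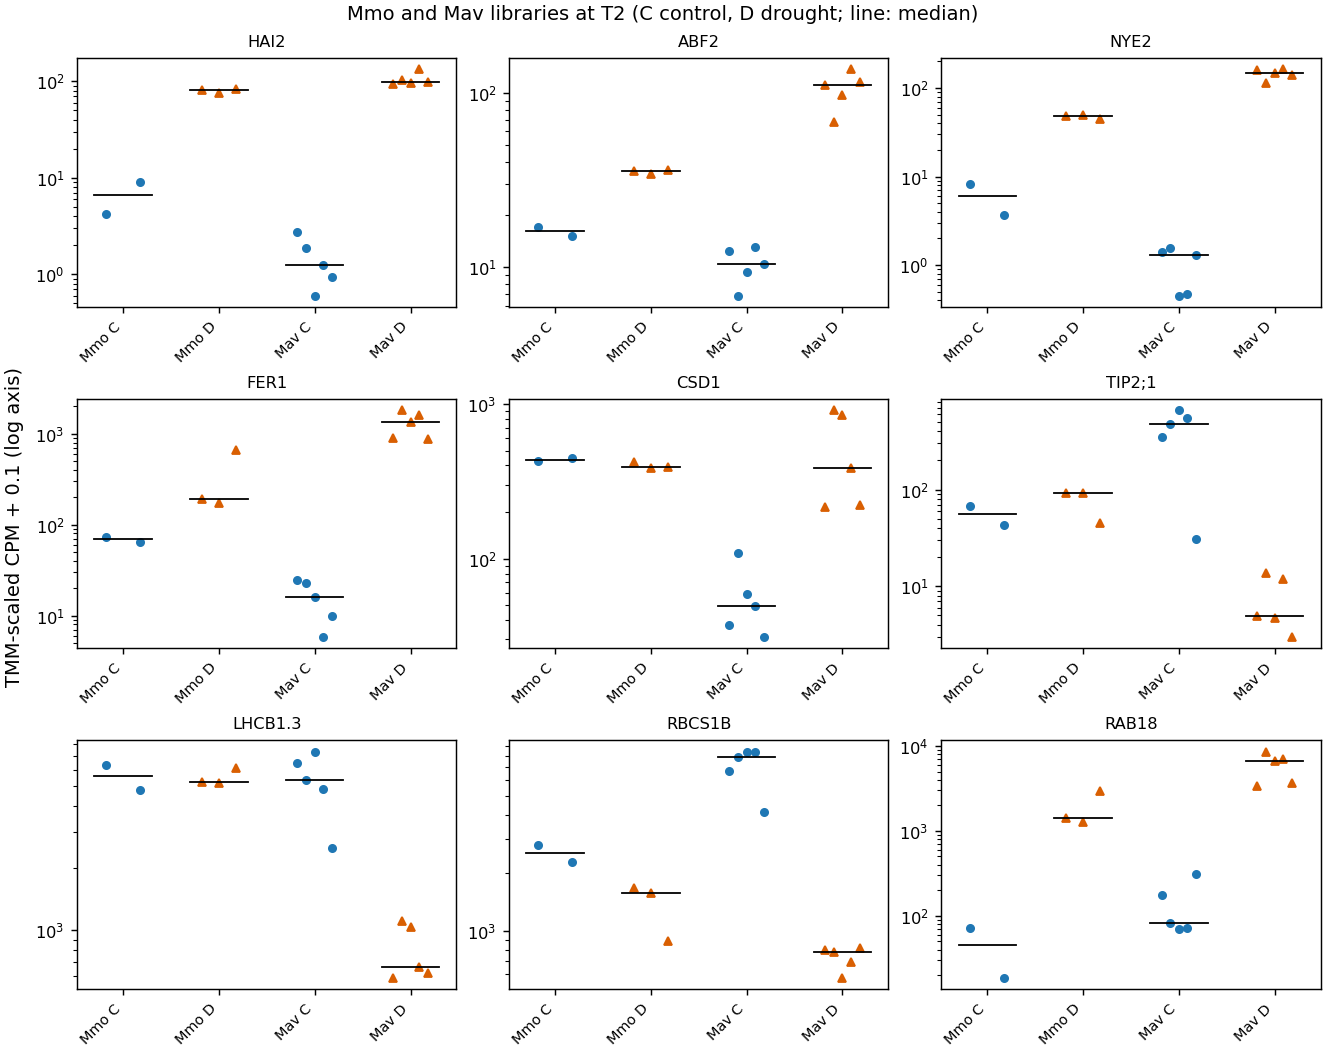
TMM-scaled CPM plus 0.1 of 9 genes, on log axes, in control (C, blue circles) and drought (D, orange triangles) libraries of Mmo and Mav at T2, with a line at the median. NYE2 was at 44.4 to 49 CPM in droughted Mmo and 114 to 162 CPM in droughted Mav, and LHCB1.3 at 590.0 to 1107 CPM in droughted Mav, below every other library shown.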

How the data were processed

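RNA-seq of mature leaves was taken from 5 Mmo libraries of T2, and from 29 further libraries of Mmo and Mav for comparison. The authors deposited estimated counts, which were rounded to whole numbers here, and TPM per *Arabidopsis* gene. In each T2 library of Mmo, 2236 to 2792 features had a rounded count of 0 but a TPM above 0. Reads had been mapped by the authors to a reduced set of *Arabidopsis* coding sequences (TAIR10) with BLAT in protein space, and best-scoring matches were kept. Reads of near-identical family members can thus be shared, and single members are uncertain. The labels call the libraries biological replicates, and p-values measure the spread between these libraries, some of which were nearly identical.

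The estimated counts were filtered (filterByExpr), scaled with TMM and tested by edgeR's quasi-likelihood test (edgeR 4.0.16, R 4.3.3), with calls at a log2 fold change beyond 1 in either direction and a Benjamini-Hochberg adjusted p under 0.05. SE is the fold change divided by the root of F. Differences between responses were interaction terms. The lane number was 6 for all Mmo libraries of T2, 5 for T1 controls, and 5 or 6 for T1 drought. It was 1, 2 or 7 for Mav controls of T2 and 2 or 7 for droughted Mav. No fit held a term for lane, and its part in the differences was not tested. Libraries of a group were nearly identical where their count differences had a median under 4 times the counting variance, over genes with a mean of at least 20 counts. Among the rewatered Mmo plants, M26s, M27s and M28s were nearly identical to each other (1.90 to 2.03). Alternatives were RLE size factors, no filter, DESeq2 1.42.0, limma 3.58.1 on log2(TPM + 1) and log2(TPM + 0.1) of the deposited TPM, a stricter threshold, a test against the fold threshold, other control sets, summed libraries and each library left out. The scripts were tested on simulated data.

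Genes were named where called in both fits with a mean of at least 5 CPM (up to 10 per direction by fold change), as the called members with the largest fold change of each of 32 lists (up to 4 per direction), with RAB18, RD29A, RD29B, NCED3, P5CS1 and HAI1, and as the 3 largest differences between responses per direction. Other list members were chosen after their values were seen. The members and lists were chosen with earlier results of these data known. Symbols and roles of list members come from general knowledge of *Arabidopsis*, not from the files, and at most 2 identifiers without a symbol are given per direction and comparison.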

Additional observations from a re-analysis of the deposited data

Results flagged for a closer look

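The genes below were named by the rule for the comparisons of responses, in which the drought response of Mmo at T2 was tested against that of Mav at T2 or of Mmo at T1 by an interaction term in edgeR. Each had a difference between responses (log2 scale) at an adjusted p under 0.05. Both sets of differences, and the comparison of drought with control itself, rest on the same 5 Mmo libraries of T2. Group values are the lowest to highest CPM, controls first, and "summed" is the adjusted p with near-identical libraries summed.

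Against Mav, the largest shifts upward were those of LEA4-1 (AT1G32560), a group 4 LEA protein, at 0 to 0.0631 and 0.647 to 24.4 CPM in Mmo against 4.32 to 15.4 and 0.164 to 1.49 CPM in Mav (11.50 ± 2.18, 0.0193 summed), of AT2G41850 (11.26) and of AT2G16060 (10.18 ± 2.2). For LEA4-1, M17s and M19s were at 0.647 and 0.740 CPM and only M20s was at 24.4 CPM. A T0 control of Mmo, M12c, was at 19.8 CPM. With T2 controls at 0 and 0.0631 CPM, the fitted difference of LEA4-1 rests on few counts. The Mmo controls held 0 counts of AT2G41850, so that its fitted difference depends on the prior count of the method. The largest shifts downward were those of AT2G20980 (-9.72 ± 1.53) and AT1G58260 (-8.13 ± 2.13), and the Mmo controls of AT2G20980 spanned 0.158 to 15.4 CPM.

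Several further differences from Mav lay in genes of sugar and proline use. PHS1 (AT3G29320), a plastid starch phosphorylase, was at 118 to 163 and 59.9 to 96.6 CPM in Mmo and at 143 to 232 and 17.41 to 23.8 CPM in Mav (2.17 ± 0.34, 0.0177 summed). SUS3 (AT4G02280), a sucrose synthase, was at 73.4 to 99.6 and 92.2 to 141 CPM in Mmo and at 27.4 to 53.3 and 179 to 459 CPM in Mav (-2.53 ± 0.45, 0.0364 summed). DIN10 (AT5G20250), a raffinose synthase family gene induced in darkness and by sugar starvation, differed by 4.42 ± 1.21 and PRODH1 by 5.64 ± 1.52, in both of which M20s was the highest of the Mmo drought libraries. Among photosynthesis and water channel genes, the differences were 2.7 ± 0.53 for LHCB1.3, 2.40 ± 0.45 for RBCS1B, 1.67 ± 0.40 for HPR1 (AT1G68010) (hydroxypyruvate reductase of photorespiration), 6.25 ± 1.2 for TIP2;1 and 2.02 ± 0.53 for PIP2;5 (AT3G54820).

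In the ABA pathway, chlorophyll breakdown and oxidative stress, the differences were -2.64 ± 0.57 for HAI2, -2.2 ± 0.34 for ABF2, -2.35 ± 0.48 for NAC019, -4.25 ± 0.57 for NYE2 and -4.08 ± 0.74 for FER1. KCS1 (AT1G01120), an elongase of wax chains, was at 37.5 CPM in both controls and 5.36 to 16.4 CPM in drought of Mmo and at 74.3 to 129 and 75.5 to 155 CPM in Mav (-2.35 ± 0.50, 0.0729 summed), and the groups overlapped in Mav but not in Mmo. TSO2 (AT3G27060), a ribonucleotide reductase subunit of dividing cells, was at 6.09 to 18 and 4.52 to 9.34 CPM in Mmo and at 125 to 222 and 3.59 to 10.7 CPM in Mav (3.49 ± 0.60, 0.0263 summed). PDF1.2 (AT5G44420), a defensin, was at 63 to 109 and 144 to 542 CPM in Mmo and at 58.9 to 140.0 and 15.6 to 53.9 CPM in Mav (3.52 ± 0.82, 0.0479 summed). The remaining differences were 6.49 ± 1.55 for XTH4 (AT2G06850), -1.93 ± 0.50 for FMOGS-OX5 (AT1G12140) (side chain oxidation of glucosinolates) and 4.08 ± 0.95 for LUX.

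Against T1, the largest shifts were those of AT1G17810 (14.32, with the T1 drought libraries at 0 counts, so that the value depends on the prior count), AT2G21490 (11.96 ± 2.21), AT4G21326 (-12.43 ± 1.17), AT5G35480 (-8.29 ± 1.17) and XTH7 (-7.98 ± 1.01). Among the protective proteins, transcription factors and heat shock genes, the differences were 9.82 ± 0.94 for LEA4-5, 4.13 ± 0.80 for RAB18, 2.71 ± 0.32 for DREB2A and 7.61 ± 0.54 for HSP18.2, and those of ABF3, PYL4 and NAP were -1.63 ± 0.30, -1.85 ± 0.40 and -3.73 ± 0.80. BFN1 (AT1G11190) was at 0.0932 to 1.71 and 0.913 to 2.08 CPM at T1 and at 0.631 to 1.1 and 21.6 to 69.2 CPM at T2 (5.10 ± 1.08, 0.142 summed).

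For the genes named next, both stages are given in full. BGLU18 (AT1G52400), which releases ABA from its glucose ester, was at 3986 to 4879 and 128 to 195 CPM at T1 and at 1154 to 2413 and 693 to 977 CPM at T2 (3.54 ± 0.47, 0.0605 summed). VSP2 (AT5G24770), a jasmonate-induced storage protein, was at 13084 to 30396 and 1009 to 1691 CPM at T1 and at 5775 to 6121 and 5105 to 7769 CPM at T2 (4.21 ± 0.62, 0.0835 summed). MYB34 (AT5G60890), a regulator of indole glucosinolates, was at 20.8 to 51.4 and 0.0233 to 0.0761 CPM at T1 and at 5.43 to 5.73 and 0.324 to 1.85 CPM at T2 (6.47 ± 1.03, 0.0443 summed). SUS1 was at 49.5 to 148 and 23 to 28.8 CPM at T1, opposite in direction to T2 (3.84 ± 0.59, 0.0666 summed). PR2 (AT3G57260), a pathogenesis-related glucanase, was at 4.05 to 29.4 and 106 to 122 CPM at T1 and at 31.2 to 99.1 and 8.09 to 18.23 CPM at T2 (-4.51 ± 0.88, 0.139 summed).

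The other differences from T1 were 8.87 ± 1.71 for SIP1 (AT1G55740), 1.90 ± 0.46 for P5CDH (AT5G62530) of proline breakdown, -1.43 ± 0.34 for TPS11 (AT2G18700), 4.99 ± 0.79 for PIP2;4 (AT5G60660), 2.31 ± 0.60 for APX5 (AT4G35970), 5.16 ± 1.15 for XTH23, 4.91 ± 1.11 for LUX and -1.32 ± 0.22 for PRR3. Of these 8, SIP1, P5CDH, PIP2;4 and APX5 were lower in T1 drought than in every T1 control.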

How the results depend on the processing

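The 920 calls of the main comparison became 2551 with DESeq2, 1966 against all 14 Mmo control libraries, 163 when tested against a log2 fold change of 1, 104 in 1 fit over all Mmo libraries with near-identical ones summed, 65 with only the pair of T2 summed, 16 at an adjusted p under 0.01, and between 0 and 2597 with a library left out. Calls with RLE size factors, without a filter on low counts, with limma on log2 TPM and in 1 fit over all Mmo libraries numbered 930, 988, 739 to 840 and 1179. The 1158 differences from Mav became 2330 with DESeq2 and 349 with near-identical libraries summed, and ranged from 143 to 1439 with a library left out. The 1279 differences from T1 became 2359 with DESeq2 and 107 with near-identical libraries summed, and ranged from 513 to 2613. All 920 calls kept their sign in every alternative in which they were tested except the comparison with all 14 controls, where 912 of 919 did. Of the 60 genes named in the main comparison, 57 of them called, 2 turned sign there, SUS1 to -0.26 (adjusted p = 0.857) and SAG12 to -4.01 (adjusted p = 0.446). With the pair summed, 47 of the 57 were no longer called. The cause of these changes was not tested, except that summing libraries and leaving them out lowers the number of samples. No paired analysis was possible because the droughted and control plants of T2 share no replicate number. The small number of libraries limits the precision, and genes with a few counts in the controls have fold changes that depend on them.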
